A study of Mus musculus with 6 samples.

Results

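Genes of the response to low oxygen and of glycolysis were followed across the cells of the mouse proximal pulmonary artery. They were chosen by symbol as the factors of the hypoxia pathway and known targets of it, and comprise Hif1a, Epas1, Vhl, Egln3, Slc2a1, Pfkfb3, Pgk1, Ldha, Pdk1 and Bnip3, 10 of the 35393 genes with a count in the retained cells. All 10 were detected, with totals in the retained cells from 852 UMIs for Pdk1 to 16895 for Epas1. The samples were 6 single-cell RNA-seq libraries of C57BL/6J wild-type arteries, excised with surrounding tissue and dissociated with collagenase and elastase. The 2 young libraries, both of 3 months (young 1 and young 2), were compared with 4 old libraries of 20, 24, 28 and 27 months (old 1 to old 4, in that order). No treatment or transgene was involved. The labels do not say which mice gave each library. The study describes as many old mice as there were old libraries, but more young mice than the young libraries used here, and the p-values measure the spread between these libraries.

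Cells sense oxygen through hydroxylation of the alpha subunits of the hypoxia-inducible factors, HIF-1α (Hif1a) and HIF-2α (Epas1). In oxygen, prolyl hydroxylases such as Egln3 mark these subunits and the Vhl protein recruits the ligase that has them degraded. In hypoxia they persist, pair with Arnt and raise genes for glucose uptake, glycolysis and the restraint of mitochondrial oxidation. Much of this control acts on the proteins, so mRNA of Hif1a or Epas1 does not report their activity. In the pulmonary circulation HIF-2α is known mainly from the endothelium.

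Retained barcodes numbered 935 to 4067 per library and their median depth ran from 801.5 to 8150 UMIs, with both young libraries and old 2 near the low end. These 3 libraries also shared barcodes (131, 156 and 215 per pair, against 4 or fewer for any other pair), and 40.4% of airway epithelial cells carried a shared barcode against 1.39% or less in the other cell types compared. By their labels old 3 and young 2 came from females and old 4 from a male, and the other labels give no sex. Old 1 held 2395 Xist and 205 Ddx3y UMIs, against 20202 and 2 in old 3 and 46 and 5800 in old 4. The study describes the mouse of that age as male, which the excess of Xist goes against. Each artery cell type carried its defining markers: all 10 endothelial markers were present in the ECs of every library and all 9 smooth muscle markers in the SMCs. Markers of other cells were present too. Cardiomyocyte markers summed to 4727 CPM (UMIs per 1000000 UMIs) in the SMCs of young 1, with 5 of 5 detected, against 290 to 761 CPM in the SMCs of the other libraries. Fibroblast markers summed to 2198 to 3298 CPM over the SMCs of the libraries, and erythroid markers to 22.5 to 44681 CPM over the ECs. Airway epithelial cells and B cells, which the labelled tissue does not name, made up 1384 and 2487 of 15311 cells.

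Short stretches of promoter are shown for 5 members, because these fell into groups that shared calls in some cell types. Ldha, Pgk1 and Slc2a1 were all higher in airway epithelial cells and all lower in mesothelial cells, whereas Egln3 and Bnip3 were both higher in ECs, SMCs and mesothelial cells. Egln3 and Bnip3 were also both called lower in B cells. Elsewhere no call was shared by all genes of a group. Slc2a1 was also called in B cells and FBs, where Ldha and Pgk1 were not. Bnip3 was called lower in T and NK cells (-2.41), where Egln3 was not called (1.18). Several of these calls were lost under an alternative, as given below. Each sequence is a RefSeq window of 300 bases (250 before an annotated start and 50 after it, build GRCm38.p6), written 5′ to 3′ on the strand of the gene. The Ldha window printed lies inside the annotated span of that gene, which also has another window. Capitals mark the core letters of the HIF response element, ACGTG or GCGTG, on either strand. The palindrome CACGTG, also the E-box of other factors, holds ACGTG on both strands and was counted once on each.

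The Ldha window (lactate dehydrogenase A, which turns pyruvate into lactate) lies at chr7:46845554-46845853 on the plus strand.
Ldha: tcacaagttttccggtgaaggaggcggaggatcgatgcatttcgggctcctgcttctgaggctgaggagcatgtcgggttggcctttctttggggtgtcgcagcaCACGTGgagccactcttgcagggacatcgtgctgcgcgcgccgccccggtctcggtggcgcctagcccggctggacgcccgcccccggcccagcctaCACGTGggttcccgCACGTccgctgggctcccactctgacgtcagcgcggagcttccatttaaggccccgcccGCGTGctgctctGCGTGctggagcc
The Pgk1 window (phosphoglycerate kinase, an ATP-forming step of glycolysis) lies at chrX:106186850-106187149 on the plus strand.
Pgk1: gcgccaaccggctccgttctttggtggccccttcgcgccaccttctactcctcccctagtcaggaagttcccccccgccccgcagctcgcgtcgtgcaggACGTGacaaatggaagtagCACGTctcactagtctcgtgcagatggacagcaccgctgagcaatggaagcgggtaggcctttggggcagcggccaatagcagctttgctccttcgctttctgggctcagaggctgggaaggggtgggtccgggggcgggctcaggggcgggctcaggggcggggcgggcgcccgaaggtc
The Slc2a1 window (the glucose transporter GLUT1) lies at chr4:119108495-119108794 on the plus strand.
Slc2a1: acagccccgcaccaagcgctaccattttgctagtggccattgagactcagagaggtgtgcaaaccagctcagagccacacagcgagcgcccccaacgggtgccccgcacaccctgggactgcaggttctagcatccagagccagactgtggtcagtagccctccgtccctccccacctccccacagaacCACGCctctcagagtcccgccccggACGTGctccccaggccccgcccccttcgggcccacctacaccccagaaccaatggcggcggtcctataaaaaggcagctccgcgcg
The Egln3 window (prolyl hydroxylase PHD3, itself a HIF target) lies at chr12:54203825-54204124 on the minus strand.
Egln3: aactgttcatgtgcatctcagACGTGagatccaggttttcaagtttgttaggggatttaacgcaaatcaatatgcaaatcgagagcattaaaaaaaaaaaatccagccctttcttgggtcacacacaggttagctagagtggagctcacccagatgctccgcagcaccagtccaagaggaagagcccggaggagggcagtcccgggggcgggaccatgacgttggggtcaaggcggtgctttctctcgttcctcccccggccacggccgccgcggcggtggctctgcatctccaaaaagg
The Bnip3 window (a mitochondrial protein of the BCL2 family that promotes mitophagy) lies at chr7:138909457-138909756 on the minus strand.
Bnip3: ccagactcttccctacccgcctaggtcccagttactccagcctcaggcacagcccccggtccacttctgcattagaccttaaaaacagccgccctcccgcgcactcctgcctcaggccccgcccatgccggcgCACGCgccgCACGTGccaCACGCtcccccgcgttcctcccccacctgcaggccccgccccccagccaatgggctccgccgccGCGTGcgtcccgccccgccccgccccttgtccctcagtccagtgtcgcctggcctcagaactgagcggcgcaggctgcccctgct

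The Ldha window held 5 matches to ACGTG and 2 to GCGTG, the Bnip3 window 2 and 3, the Slc2a1 window 1 and 1, the Pgk1 window 2 and 0, and the Egln3 window 1 and 0. The other Ldha window, which is not printed, held 0 matches to ACGTG and 2 to GCGTG. Of the 10 members 9 had an entry, with Epas1 the exception, and 8 of the 9 held either word in at least 1 window, Vhl holding none. Counted by window, 10 of the 12 windows of the members held either word. Over all 32851 promoter windows 19.6% held ACGTG, 32.4% held GCGTG and 43.8% held either word. The members include known HIF targets by choice, so these shares are not a test. A match is a description of the letters, and binding was not measured.

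Epas1 varied far more between cell types than Hif1a. All levels are CPM of the summed cells of a type in a library, and UMIs are counted at the 3′ end of transcripts, so levels of different genes carry no length term. In ECs Epas1 stood at 874 and 752 CPM in the young libraries and at 715, 427, 1031 and 1467 CPM in the old. In airway epithelial cells it stood at 956 and 860 CPM in the young and at 973, 750, 1437 and 1678 CPM in the old. The libraries of these cell types overlapped each other, and every one of them lay above every library of the other fitted types. SMCs came next, with 98.5 and 97.7 CPM in the young libraries and 72.8, 113 and 178 CPM in the old libraries 1, 3 and 4 (old 2 had 3 SMCs and was not used). Means then fell from 60.1 CPM in T and NK cells through 48.9 in FBs, 31.6 in mesothelial cells and 12.1 in macrophages to 7.92 in B cells, each neighbour in that order overlapping the next. In lymphatic ECs, outside the fitted types and measured in 2 old libraries only, Epas1 stood at 113 and 198 CPM.

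**Figure D1:**
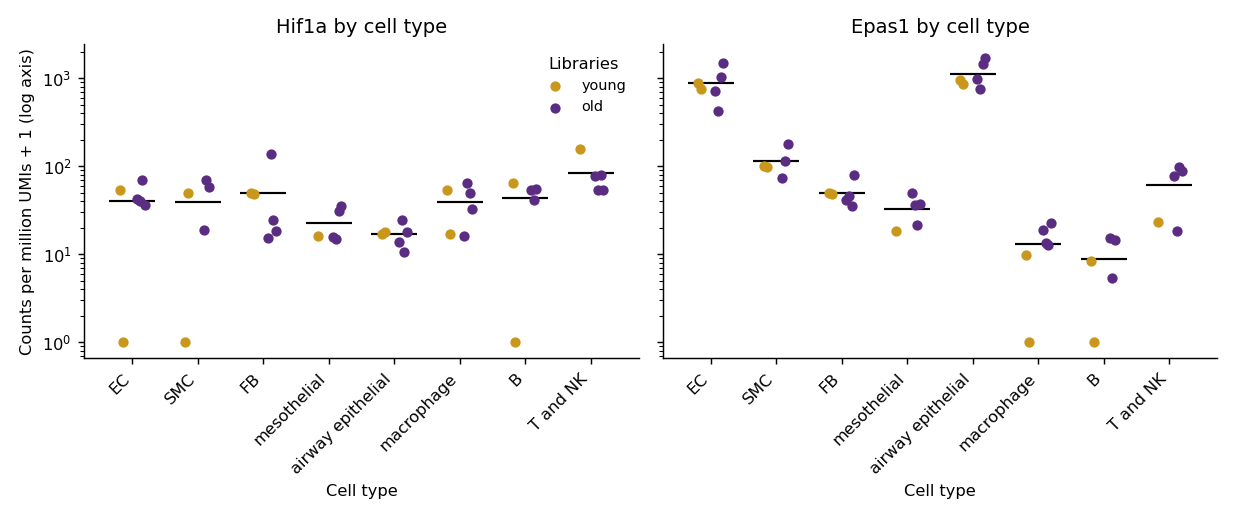
Levels of Hif1a (left) and Epas1 (right) in 8 cell types, in CPM plus 1 on a log axis, with 1 point per library and a line at the mean over libraries. Epas1 reached a mean of 878 in ECs and 1109 in airway epithelial cells and was below 180 in every library of the other types, whereas the Hif1a points of neighbouring types overlapped.

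Hif1a had mean levels from 15.9 ± 4.72 CPM in airway epithelial cells (SD, n = 6) to 82.6 ± 41.7 in T and NK cells (n = 5). It stood at 52.5 and 0 CPM in young ECs, from 3 and 0 UMIs, and at 41.0, 39.4, 69.0 and 35.6 CPM in old ECs. In the order of means (T and NK cells, FBs, B cells, ECs, SMCs, macrophages, mesothelial cells, airway epithelial cells) every type overlapped its neighbour. In monocytes and DCs, measured in 2 old libraries only, it stood at 78.1 and 76.0 CPM.

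Each cell type was then set against the mean of the other 7 in 1 edgeR fit with library as a block, over 11328 genes, with all 10 members tested. Epas1 was higher in airway epithelial cells (log2 fold change 4.93, SE 0.16, adjusted p = 4.2e-31) and in ECs (3.83, SE 0.17, adjusted p = 4.4e-25). It was lower in B cells (-3.22), macrophages (-2.69), mesothelial cells (-1.83) and FBs (-0.90, adjusted p = 0.0050), the call in FBs being lost after thinning and without the gene filter. SMCs (0.47, adjusted p = 0.12) and T and NK cells (-0.59, adjusted p = 0.15) did not pass. Hif1a passed only as lower, in mesothelial cells (-0.98, SE 0.34, adjusted p = 0.021) and airway epithelial cells (-0.85, SE 0.32, adjusted p = 0.030). The mesothelial call was lost with at least 1000 UMIs per cell, after thinning, without TMM scaling and without young 1, and the airway call after thinning and without old 3.

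Epas1 RNA was also present outside cells. In barcodes of 1 to 20 UMIs, taken as free RNA, it stood at 96.3 to 506 CPM, the highest in old 1. Its SMC levels of 72.8 to 178 CPM overlapped that range and its FB levels of 34.1 to 78.5 CPM below it. Endothelial markers summed to 48.8 to 192 CPM over the SMCs of the libraries, against 8755 to 14186 CPM in ECs. After thinning every cell to 500 UMIs, 35.01% of ECs on average (18.2% to 54.5% over libraries) held an Epas1 UMI, against 6.62% of SMCs, 3.09% of FBs and 0.288% of B cells. For Hif1a the thinned share was 1.75% in ECs and 1.49% in B cells. The other members were found in free RNA too, with Egln3 at 5.77 to 24.1 CPM, Bnip3 at 8.65 to 42.3 and Pfkfb3 at 29.8 to 56.9. Levels of these genes in ECs and SMCs overlapped those ranges, whereas Egln3 and Bnip3 in mesothelial cells lay above them. The part of free RNA was not tested, either in these levels or in those of Epas1 outside ECs and airway cells.

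The balance of Hif1a and Epas1 RNA was compared within each library as the log2 ratio of Hif1a to Epas1 UMIs, with 0.5 added to both. In ECs it was -4.96 on average in the young libraries and -4.17 in the old, and over all 6 libraries it ran from -6.07 to -3.33, Epas1 exceeding Hif1a in each. Airway epithelial cells lay lower still, from -7.03 to -4.97. Lymphatic ECs, not among the fitted types, stood at -1.65 in old 3 and -1.22 in old 4. SMCs were below 0 in 5 of 5 libraries (-2.32 to -0.72). FBs and mesothelial cells lay on both sides of 0, with 1 of 6 and 1 of 5 libraries above it. Macrophages were above 0 in 5 of 6 libraries (mean 1.43 ± 1.07) and B cells in 4 of 5 (1.96 ± 1.28). Several values rested on few UMIs, given here for Hif1a and then Epas1. B cells of young 2 held 0 and 0, so their value of 0 came from the added 0.5 alone. SMCs held 0 and 2 in young 1 and 1 and 2 in young 2. FBs held 4 and 4 in young 1 and 1 and 1 in young 2. In young 2 macrophages held 1 and 0, and ECs, with the lowest EC value, 0 and 33.

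**Figure D2:**
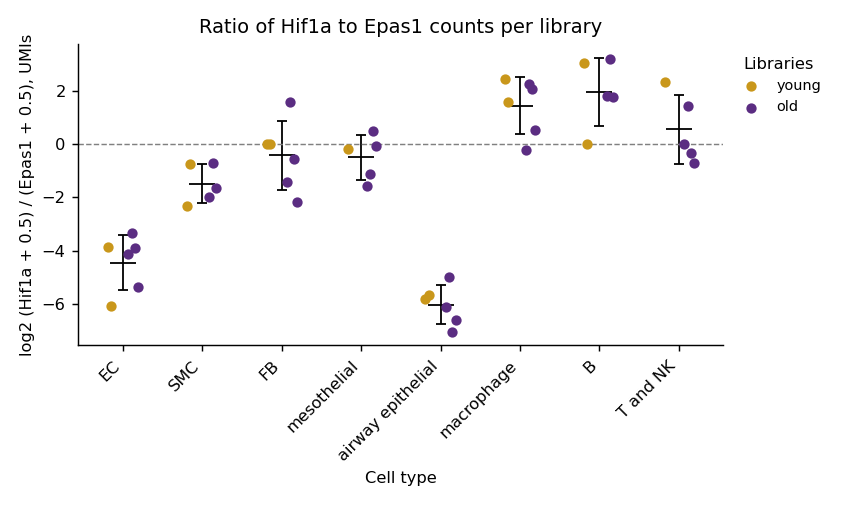
The log2 ratio of Hif1a to Epas1 UMIs per library (points) in 8 cell types, with the mean and SD over libraries as bars and a dashed line at equal counts. ECs and airway epithelial cells lie below -3 in every library, and macrophages and B cells are mostly above 0.

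Within a library, the log2 ratio of ECs minus that of FBs was -4.01 ± 1.26 (SD of the difference, below 0 in 6 of 6 libraries), and minus that of macrophages it was -5.87 ± 1.22 (6 of 6), each with an exact sign-flip permutation p = 0.031, two-sided. The difference was -3.17 ± 1.47 from SMCs, -3.62 ± 1.28 from mesothelial cells, -4.66 ± 0.97 from T and NK cells and -6.46 ± 0.84 from B cells, below 0 in 5 of 5 libraries each (exact p = 0.0625). From airway epithelial cells it was 1.59 ± 1.17, above 0 in 5 of 6 libraries (exact p = 0.0625). The comparison with B cells includes young 2, where B cells held 0 UMIs of both genes. Adjusted over the 7 comparisons every permutation p was 0.0625, the smallest this design can give, so none could pass 0.05.

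Epas1 was measured in 4 endothelial clusters, formed without the genes of interest. In cluster 3 (led by Edn1 and Pthlh), which was measured in every library, it ran from 445 to 1606 CPM, a range that overlapped those of the other 3. Within old 3 it stood at 1210 CPM in cluster 9 (led by Ldb2 and Ptprb), 904 CPM in cluster 20 (led by Gpihbp1), 812 CPM in cluster 3 and 655 CPM in cluster 14 (led by H19). Within old 4 the same clusters stood at 1616, 983, 1606 and 961 CPM, so that cluster 3 lay below cluster 20 in old 3 and above it in old 4. Haemoglobin and airway secretory genes, used as a check for free RNA, summed to 154170 CPM in cluster 3 of old 3 and 184 CPM in that of old 4. Their part in the Epas1 values was not tested. Egln3 in those libraries stood at 54.8 and 22.9 CPM in cluster 9, 55.7 and 26.3 in cluster 14 and 19.3 and 52.6 in cluster 3, the last pair from 3 and 2 UMIs, whereas the 203 cells of cluster 20 held 0 UMIs, which allows up to 5.52 CPM. Among SMCs, cluster 4 (led by Tnnt2 and Gucy1a1) had Epas1 at 262 and 270 CPM in its 2 libraries, and clusters 1 and 6 lay between 74.3 and 127 CPM. SMC cluster 13, measured in 5 libraries, ran from 68.8 to 239 CPM, from 130 UMIs in all. Clusters 9 and 20 could be measured in old 3 and old 4 only, so their values rest on those libraries. These values are a description, with no test.

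Egln3 also differed widely between cell types. In mesothelial cells, which line the outside of the vessel and lung, it stood at 51.5 CPM in young 1 and at 44.1, 35.1, 64.1 and 126 CPM in the 4 old libraries. In ECs it stood at 17.5 and 0 CPM in the young and 5.50, 13.1, 44.5 and 22.5 CPM in the old. In SMCs the young libraries were both at 0, from 2 small samples of 22 and 29 cells, and the old libraries 1, 3 and 4 at 11.0, 23.0 and 34.0 CPM. Mesothelial cells overlapped the ECs, and B cells held no Egln3 UMI in any of 5 libraries.

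Against the other types Egln3 was higher in mesothelial cells (log2 fold change 4.61, SE 0.37, adjusted p = 5.9e-15), ECs (2.88, SE 0.41, adjusted p = 1.4e-07) and SMCs (2.82, SE 0.42, adjusted p = 2.4e-07), and these calls held under every alternative that tested them. The mean of the other types includes B cells at 0 UMIs, so the size of these values depends in part on how that 0 was fitted. Mean levels in ECs and SMCs were 1.56 and 1.23 times that in T and NK cells, and in mesothelial cells 5.82 times. After thinning to 500 UMIs Egln3 no longer passed the gene filter. In airway epithelial cells, FBs and macrophages its mean level was 0.270, 2.33 and 1.46 CPM. The fit gave no SE in airway epithelial cells, and SEs of 11.6 in FBs and 182 in macrophages. The absence of a call there therefore does not show a level like that of the other types. The B cell count of 0 over 4106944 UMIs allows up to 0.730 CPM, so mesothelial cells were at least 87.8-fold higher, ECs at least 23.5-fold and SMCs at least 18.6-fold, each bound taking 3 counts over the group. Outside the fitted types, neutrophils stood at 64.5 CPM (1 UMI) in old 2 and at 101 CPM in old 3. Lymphatic ECs, measured in 2 old libraries only, stood at 25.3 and 66.5 CPM, from 21 UMIs in all. An unnamed cluster of 43 cells, led by Gm15056, Cxcl13 and Dnmbp with Egln3 itself among its 10 leading genes, held 32 Egln3 UMIs in 32 cells of young 1 (502 CPM).

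Bnip3 shared part of this pattern. It was higher in mesothelial cells (log2 fold change 1.69, SE 0.30, adjusted p = 9.0e-06), ECs (1.28, SE 0.31, adjusted p = 0.00088) and SMCs (0.86, SE 0.34, adjusted p = 0.035), and lower in B cells (-1.99) and T and NK cells (-2.41). The SMC call was lost with DESeq2 and without old 3 or old 4, the B cell call without old 3 and the T and NK call without old 2. Its levels in mesothelial cells were 75.1 CPM in young 1 and 44.1, 70.1, 56.3 and 47.5 CPM in the old. In ECs young 1 stood apart at 227 CPM, from 13 UMIs in 83 cells, against 22.8 CPM in young 2 and 24.3 to 65.7 CPM in the old. In SMCs young 1 stood at 197 CPM, from 4 UMIs, and these are the SMCs that carried cardiomyocyte markers, whose part was not tested. The SMC value was 0.81 without that library (adjusted p = 0.018).

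**Figure D3:**
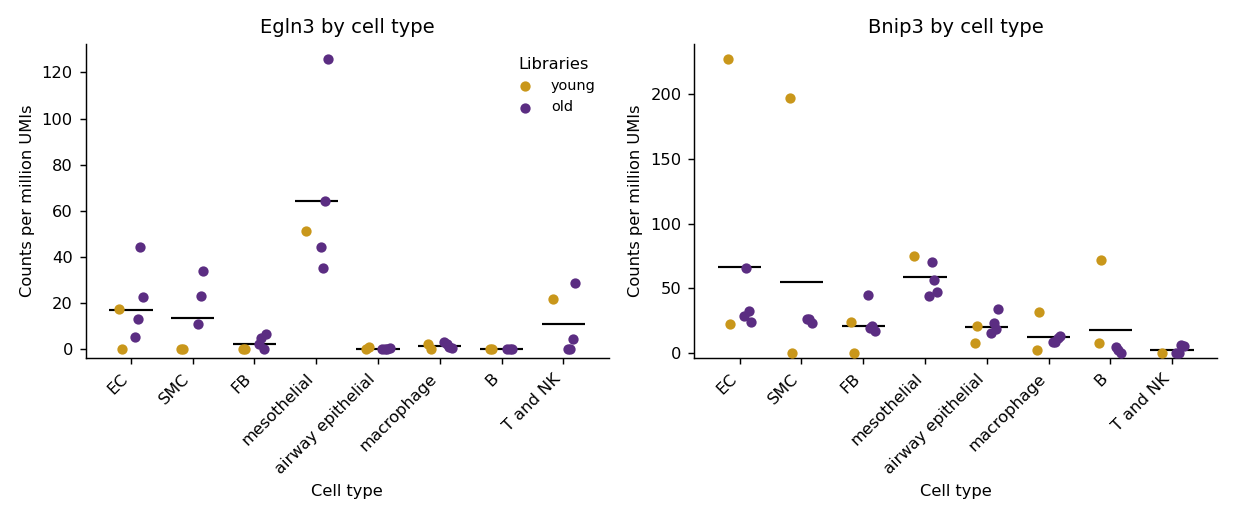
Levels of Egln3 (left) and Bnip3 (right) in 8 cell types in CPM, with 1 point per library and a line at the mean. Egln3 is highest in mesothelial cells and at 0 in B cells; for Bnip3 the highest points are young 1, at 227 in ECs and 197 in SMCs, the latter from 4 UMIs.

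Vhl, which targets hydroxylated HIF-α for degradation, passed in no cell type. Its log2 fold changes ran from -0.44 in ECs to 0.47 in mesothelial cells, with edgeR adjusted p from 0.299 to 0.935. In the young libraries ECs, FBs and SMCs all held 0 Vhl UMIs. These were small sums, of 83 and 62 ECs, 95 and 29 FBs and 22 and 29 SMCs in young 1 and young 2. The zeros therefore do not show a level below that of the old libraries.

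The glycolytic members divided by cell type. Ldha stood in airway epithelial cells at 257 and 256 CPM in the young libraries and 353, 210, 208 and 200 CPM in the old, and in mesothelial cells at 55.8 CPM in young 1 and 83.4, 42.1, 75.0 and 76.9 CPM in the old. The groups of libraries of these types did not overlap. Against the other types Ldha was higher in the airway cells (log2 fold change 1.04, SE 0.18, adjusted p = 4.8e-06) and lower in mesothelial cells (-1.80, SE 0.25, adjusted p = 3.6e-08), calls that held under every alternative run. Processed copies carry related names (3 gene rows each for Ldha and Pgk1, 1 for Vhl), and how reads that match several copies were counted is not given in the sources used here.

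Pgk1 moved the same way in both types with smaller values, higher in airway epithelial cells (0.80, SE 0.21, adjusted p = 0.0014) and lower in mesothelial cells (-0.68, SE 0.25, adjusted p = 0.035). Both calls were lost when shared barcodes were removed, after thinning and without TMM scaling, and the mesothelial call also without the gene filter and without old 1, old 3 or young 1. Slc2a1 was higher in airway epithelial cells (1.13, adjusted p = 0.0011) and B cells (1.04, adjusted p = 0.0075) and lower in mesothelial cells (-1.37, adjusted p = 0.0088) and FBs (-1.01, adjusted p = 0.025). Each of the Slc2a1 calls was lost when 1 library was left out: old 4 for the airway cells, old 3 for B cells, old 1 or old 3 for mesothelial cells, and old 2, old 3 or old 4 for FBs. The FB call was also lost with at least 1000 UMIs per cell and without the gene filter. Its level in FBs was 12.1 and 0 CPM in the young and 23.9, 0, 9.99 and 15.8 CPM in the old.

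Pfkfb3, which makes the activator of phosphofructokinase and is a known glycolytic switch of endothelium, was higher in ECs (log2 fold change 1.30, SE 0.27, adjusted p = 0.00015) and macrophages (1.22, SE 0.26, adjusted p = 9.7e-05). In ECs it stood at 34.97 and 91.2 CPM in the young and 76.4, 52.6, 99.1 and 59.9 CPM in the old. It was lower in airway epithelial cells (-2.05, SE 0.39), with 0 to 12.1 CPM over libraries, and in mesothelial cells (-1.09), the latter call lost without old 2, old 3 or old 4. Immediate early genes that dissociation can raise were higher in ECs for 9 of 12 (18.7% of all genes) and in macrophages for 7 of 12 (24.6% of all genes), and their part in the Pfkfb3 values was not tested. Pdk1, the kinase that holds pyruvate dehydrogenase off, was higher in T and NK cells (1.43, SE 0.35, adjusted p = 0.0014) and airway epithelial cells (0.97, lost without TMM scaling) and lower in FBs (-2.20, SE 0.40, adjusted p = 9.3e-06). FBs held 0 Pdk1 UMIs in both young libraries and in old 2, and 2.39, 3.77 and 5.14 CPM in the others. The young sums were of 95 and 29 FBs, too few to show an absence.

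**Figure D4:**
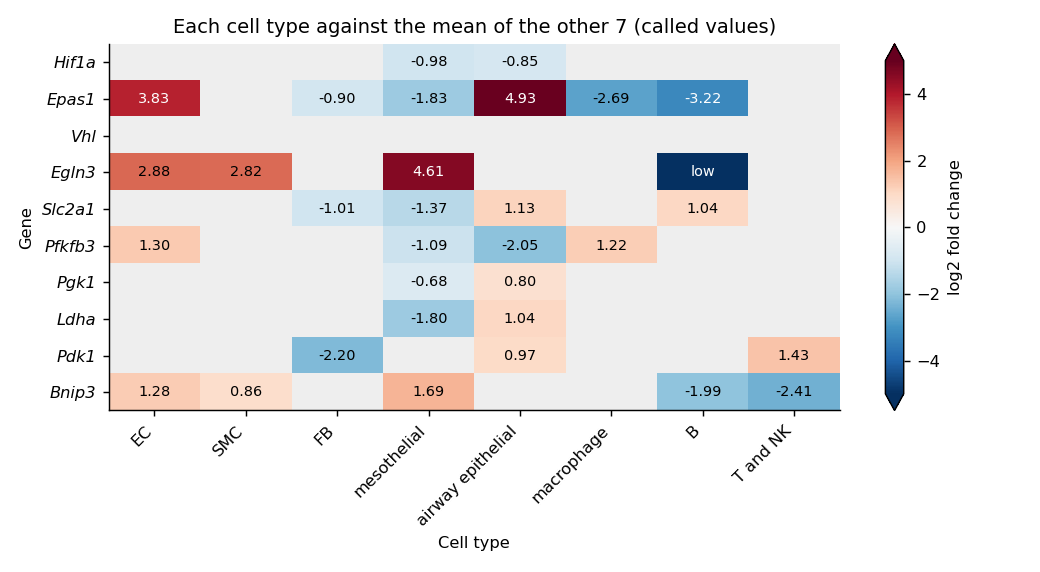
Log2 fold changes of the 10 genes in each of 8 cell types against the mean of the other 7, shown where the edgeR adjusted p was under 0.05 and grey elsewhere. Egln3 in B cells, at 0 UMIs, is marked low in place of a fitted value. For Egln3 in airway epithelial cells, FBs and macrophages grey means that the fit gave no usable SE. Mesothelial and airway epithelial cells hold the most calls, 8 and 7.

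Over all 8 cell types 32 of the 80 combinations of member and type passed, 16 higher and 16 lower, which is 40% against 36.3% of all gene and type combinations, a share near the background. Egln3 in airway epithelial cells, FBs and macrophages, where the fit gave no usable SE, is counted among those that did not pass. By type the calls were 8 of 10 in mesothelial cells (background 32.5%), 7 in airway epithelial cells (40.6%), 4 in ECs (30.3%), 4 in B cells (43.8%), 3 in FBs (32.9%), 2 in SMCs (40.2%), 2 in macrophages (40.1%) and 2 in T and NK cells (30.3%), of which 1 was lower (background 17.8%). In mesothelial cells 6 were lower (background 11.9%) and 2 higher (background 20.5%), with a median log2 fold change of -0.83 over the members against -0.05 over all genes. In airway epithelial cells 5 were higher (background 28.8%) and 2 lower (median 0.78 against 0.15). Without TMM scaling the share of called genes that were higher fell in airway epithelial cells from 71.0% to 39.0%, and rose in T and NK cells from 41.2% to 60.2% and in mesothelial cells from 63.2% to 75.8%. Without that scaling the Pgk1 calls in both airway and mesothelial cells were lost, as were the Pdk1 call in airway cells and the Hif1a and Pfkfb3 calls in mesothelial cells. With cells of shared barcodes removed, the airway values were 4.83 for Epas1, 0.92 for Ldha, 1.10 for Slc2a1, 1.09 for Pdk1, -0.89 for Hif1a and -2.05 for Pfkfb3, all still called.

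Of 16 further glycolysis genes 15 were tested, and in SMCs 11 were higher and 1 lower (median log2 fold change 0.85 against -0.11 over all genes; 20.4% of all genes were called higher and 19.8% lower). The highest were Ldhb (2.81, SE 0.25), the other lactate dehydrogenase subunit, and Pfkm (2.09, SE 0.34), the muscle phosphofructokinase, and the gene that was lower was the glucose transporter Slc2a3 (-1.35, SE 0.43). Cardiomyocyte markers summed to 290 to 4727 CPM over the SMCs of the libraries, and their part in these values was not tested. The members of the same pathway did not pass in SMCs, with Ldha at 0.13, Pgk1 at 0.07 and Slc2a1 at 0.52. In ECs, where 18.7% of all genes were higher and 11.6% lower, 2 of the 15 were higher, Pfkl (1.19, SE 0.21) and the hexokinase Hk1 (0.94, SE 0.19), and 6 lower, the lowest Hk2 (-4.06, SE 0.47) and Slc2a3 (-1.37, SE 0.44). In FBs, where 20% of all genes were higher and 13% lower, Hk2 was the 1 higher gene (1.78, SE 0.27) and 4 were lower, the lowest Pfkl (-2.35, SE 0.31) and enolase Eno1 (-1.01, SE 0.27).

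Of 27 other known HIF targets 24 were tested. In ECs 11 were higher and 3 lower (median 0.53 against -0.07; background 18.7% higher and 11.6% lower), led by endothelin Edn1 (5.69, SE 0.38) and the collagen cross-linking enzyme Lox (4.03, SE 0.24), with the transferrin receptor Tfrc (-1.36, SE 0.41) and mitochondrial Higd1a (-0.90, SE 0.22) lowest. In FBs 10 were higher and 4 lower (median 0.26 against -0.09; background 20% higher and 13% lower), led by adrenomedullin Adm (4.59, SE 0.41) and Lox (3.16, SE 0.27), with Ankrd37 (-2.49, SE 0.49) and Tfrc (-2.48, SE 0.46) lowest. In SMCs 9 were higher and 2 lower (median 0.19 against -0.11; background 20.4% higher and 19.8% lower). Lox was among those that were higher (3.38, SE 0.29), and the genes that were lower were Edn1 (-2.82, SE 0.74) and Bhlhe40 (-2.36, SE 0.60). Many of these genes, such as Lox in matrix-forming cells, also belong to the ordinary repertoire of a cell type.

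Of 12 regulators of the pathway 10 were tested. Called were 5 in B cells (3 higher against a background of 23.4%, and 2 lower against 20.4%), 3 in airway epithelial cells (all higher, background 28.8%), 2 each in FBs (32.9%), SMCs (40.2%) and macrophages (40.1%), and 1 each in ECs (30.3%) and in T and NK cells (30.3%). In mesothelial cells edgeR called 0 (background 32.5%), and 0 had an unadjusted p under 0.05. Of the artery types, in ECs Elob, an elongin subunit of the Vhl ligase, was lower (-0.52, SE 0.19), in SMCs Elob was higher (0.49, SE 0.19) and the coactivator Ep300 lower (-0.51, SE 0.21), and in FBs Cited2 (-0.95, SE 0.25), which competes with HIF for Ep300, and Ep300 (-0.60, SE 0.19) were lower.

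Across the means of the 8 cell types, the genes most like Epas1 in log2(CPM + 1) were Galnt18 (Pearson r = 0.99), Gm32031 (0.96) and Adh7 (0.96), and those most like Hif1a were Gramd1a (0.95), Gm7618 (0.95) and Gm11973 (0.94). For Egln3 the nearest gene was Fam32a (0.98), for Bnip3 Nicn1 (0.99), for Vhl Dok6 (0.98), for Pfkfb3 Arhgef2 (0.97), for Pdk1 Ly75 (0.97), for Slc2a1 Stip1 (0.94), for Pgk1 Mboat1 (0.93) and for Ldha Hivep3 (0.93). These are the nearest of 11328 genes tested, over 8 points that share libraries, and are given as a description.

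The design asked how these genes differed between old and young arteries. No member passed in any of the 6 cell types compared. The edgeR test was run on the members that passed the gene filter (3 or more libraries with a UMI in over 5% of the cells), which was 7 of 10 in ECs, 7 in airway epithelial cells, 5 in FBs, 4 in macrophages, 3 in B cells and 4 in the SMCs of cluster 13, the cluster that held the young SMCs. Of these 30 tests none had an adjusted p under 0.05 (lowest 0.47) and 4 had an unadjusted p under 0.05; DESeq2 also called none. Among all genes tested 0.0452% were called in FBs, 0.0238% in SMCs and 0 in the other types, and an unadjusted p under 0.05 was found for 6.61% of genes in FBs, 5.8% in ECs, 9.89% in SMCs, 5.2% in macrophages, 6.12% in B cells and 5.54% in airway epithelial cells. Vhl and Egln3 were in no age test.

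The 4 members with an unadjusted p under 0.05 are named here after their values were seen. Ldha in SMCs of cluster 13 stood at 161 and 97.7 CPM in the young, from 3 and 2 UMIs, and at 324, 247 and 344 CPM in the old, which did not overlap (log2 fold change 1.69, SE 0.62, edgeR unadjusted p = 0.012, adjusted p = 0.47). That cluster held 81 of 951 SMCs in old 3 and 171 of 2341 in old 4. In SMC clusters 1, 4 and 6, measured in old 3 and old 4 only, Ldha stood at 167 to 205 CPM. Erythroid markers summed to 13950 CPM in the cluster 13 SMCs of old 3, and airway epithelial markers to 5425 CPM in those of old 4. The part of these markers was not tested. Cardiomyocyte markers summed to 5140 CPM in the cluster 13 SMCs of young 1 and to 183 to 765 CPM in those of the other libraries; without young 1 the Ldha value was 2.03 (adjusted p = 0.57). Pfkfb3 in FBs stood at 60.4 and 47.8 CPM in the young, from 5 and 1 UMIs, and at 19.1, 14.7, 20.0 and 18.2 CPM in the old (-1.61, SE 0.69, unadjusted p = 0.030, adjusted p = 0.71). Nearly all young FBs lay in cluster 7, against 118 of 828 FBs in old 3 and 71 of 496 in old 4. Age was also compared in the FBs of cluster 7 alone, chosen after seeing the data, and 0 of 5326 genes were called. The part of the uneven spread over clusters in the FB age values was not otherwise tested. Pdk1 in airway epithelial cells stood at 6.06 and 8.84 CPM in the young and 15.9, 13.96, 37.8 and 24.3 CPM in the old (1.28, SE 0.45, unadjusted p = 0.016, adjusted p = 0.81). Of the airway epithelial cells 40.4% carried a barcode also found in another library, and old 3 held 21 airway epithelial cells. Bnip3 in ECs (-1.95, SE 0.72, unadjusted p = 0.018, adjusted p = 0.83) rested on young 1, and without that library the value was 0.57.

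**Figure D5:**
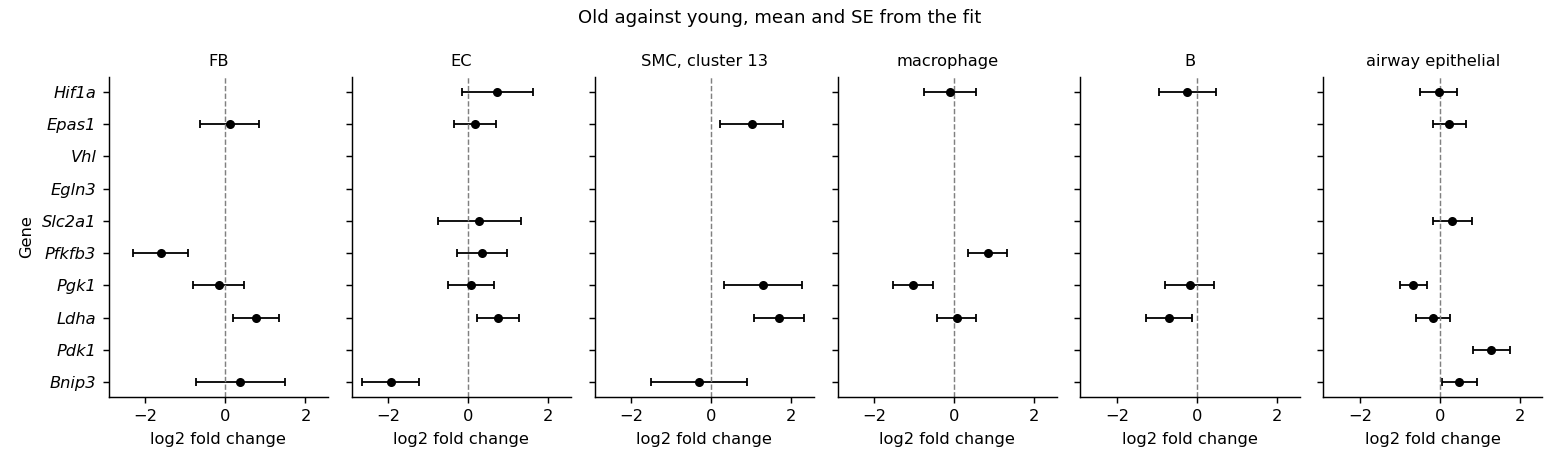
Log2 fold changes of old against young with their SE from the edgeR fit, for the members tested in each of 6 cell types; SMCs are those of cluster 13. No value passed an adjusted p of 0.05; the largest sizes are Bnip3 in ECs (-1.95) and Ldha in SMCs (1.69).

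In ECs, too, each old library exceeded both young ones for Ldha (192 and 137 CPM against 381, 204, 235 and 240) and the same held in FBs (96.7 and 95.6 against 186, 167, 122 and 141), whereas in B cells the old libraries were all lower (205 and 289 CPM against 173, 121 and 102 in old 2 to old 4). None of these passed: the log2 fold changes were 0.75 (SE 0.52) in ECs, 0.77 (SE 0.58) in FBs and -0.70 (SE 0.57) in B cells. The young ECs, FBs and SMCs held at most 11 Ldha UMIs in a library. In cluster 3, the ECs measured in every library, the Ldha groups overlapped (180 and 147 CPM in the young against 366, 204, 168 and 184 CPM in the old). Over the 30 tests 9 pairs of groups did not overlap, 5 with old higher. Among those with old lower was Pgk1 in macrophages (log2 fold change -1.03, SE 0.51) and in airway epithelial cells (-0.68, SE 0.34), neither of which passed. Over all genes tested in these types 22.2% of the pairs did not overlap, 13.2% with old higher, and by type the share was 15.5% in airway epithelial cells, 16.9% in macrophages, 20.4% in ECs, 24% in FBs, 32.8% in B cells and 33.8% in SMCs. In ECs the dissociation genes went the other way from Ldha. Their summed level was 25841 and 21982 CPM in the young libraries and 2758 to 18235 CPM in the old. With age edgeR called 0 of the 12, and 0 had an unadjusted p under 0.05. In B cells, where Ldha was lower in the old libraries, the log2 fold changes of the 10 dissociation genes tested were all positive (median 1.12), 3 had an unadjusted p under 0.05 and 0 were called. The part of these genes in the Ldha values was not tested.

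Epas1 did not pass with age, with log2 fold changes of 0.17 (SE 0.53) in ECs, 0.10 (SE 0.73) in FBs, 1.01 (SE 0.78) in SMCs and 0.23 (SE 0.41) in airway epithelial cells. The Hif1a to Epas1 log2 ratio differed between old and young by 0.79 in ECs (-4.17 ± 0.85 against -4.96 ± 1.57), by -0.64 in FBs, -0.83 in SMCs of cluster 13, -0.87 in macrophages, 0.73 in B cells and -0.45 in airway epithelial cells. The exact two-sided permutation p ran from 0.53 to 0.67, and every adjusted p was 0.67; with 2 young and 4 old libraries it cannot go below 0.13, and with 3 old below 0.20. With 2 young libraries, both shallow and both in the set that shared barcodes, age, depth and that set cannot be fully told apart, and old 2 is the only old library in it.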

How the data were processed

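Libraries were made with 10x Genomics 3′ v3.1 chemistry. The authors trimmed reads with cutadapt and mapped and counted them with STARsolo on GRCm38.p6 (release M22; tool versions are not given in the sources used here), and the deposited matrices hold raw UMI counts per gene and barcode without cell filtering. Gene symbols were taken from the files. Promoter sequences were from RefSeq, GRCm38.p6.

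Barcodes with at least 500 UMIs and 300 genes and at most 20% mitochondrial UMIs were kept (15622), and 311 predicted doublets were removed with Scrublet. Cells were clustered with scanpy 1.11.5 (2000 variable genes, 40 components, 15 neighbours, Leiden resolution 1) without the members and pathway lists. Of 34 clusters 29 were named from marker lists and 5 (553 cells) stayed unnamed. For each library the counts of a cell type were added up where it had at least 10 cells. Types were tested with edgeR 4.0.16 (quasi-likelihood, TMM, Benjamini-Hochberg over all genes, with library as a block for cell types and no covariate for age). For age, genes were kept for which 3 or more libraries had a UMI in over 5% of the cells of the type. For cell types, a gene was kept where at least 1 type met that rule. Such a gene could thus enter through a type in which it was high. The SE is the log2 fold change divided by the root of its F statistic. Ratios were compared with exact permutation tests.

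Members and lists were chosen with earlier results of these data known. Named were all 10 members, for each pathway list and artery type the 2 highest and 2 lowest called genes, and for each member the genes most alike across types (the nearest only for 8 of them). A gene that this rule names is not reported here. Age was compared in the SMCs of cluster 13 because it held most young SMCs. Clusters 1, 4 and 13 all had markers of other cells among their leading genes, with the cardiomyocyte marker Tnnt2 in clusters 4 and 13. The comparison of cell types used all SMC clusters. Total UMIs ran from 6355125 to 50436562 per library. Intervals and floors cover counting error only. Ero1l, in the list of targets, was not found under that symbol. Alternatives comprised other cell, gene and depth filters, scaling, DESeq2 1.42.0, a batch covariate and leaving out each library.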

Additional observations from a re-analysis of the deposited data

Results flagged for a closer look

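In groups of 4 old libraries, 66 groups of member levels and ratios were examined for 1 library far from the others, and 9 were found, where chance gives about 1 in 20. Hif1a in FBs stood at 137.6 CPM in old 2, from 28 UMIs, against 14.3 to 23.4 in the other old libraries, and Hif1a in ECs at 69.0 CPM in old 3 against 35.6 to 41.0. Bnip3 in FBs stood at 45.3 CPM in old 1 (17.5 to 20.7 in the others). In old 1 Ldha stood at 461.8 CPM in T and NK cells (236 to 267 in the others) and at 352.9 CPM in airway epithelial cells (200.1 to 210.2), and Slc2a1 at 77.0 CPM in T and NK cells from 2 UMIs (29.1 to 36.9). Egln3 in T and NK cells stood at 28.8 CPM in old 4, from 5 UMIs (0 to 4.34), and in airway epithelial cells at 0.736 CPM in old 4, from 1 UMI. Pfkfb3 in airway epithelial cells was at 0 in old 3, which held 21 such cells, against 6.36 to 7.35 in the other old libraries. So small a sum does not show an absence.

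Some members separated old from young in opposite directions in a pair of cell types, and these differences were not tested. Pfkfb3 was lower in every old library in FBs and higher in every old library in macrophages, the log2 fold changes differing by -2.45. In macrophage cluster 5, which was measured in every library, the groups overlapped (38.8 and 88.6 CPM in the young against 17.6, 39.4, 88.5 and 31.0 CPM in the old), and of the macrophages of old 3 and old 4 most, 375 of 442 and 211 of 228, lay in cluster 10, where no young library could be measured. Ldha was higher in every old library in FBs, ECs and SMCs of cluster 13 and lower in B cells, with differences from B cells of 1.47, 1.45 and 2.39, but in the ECs of cluster 3 the groups overlapped.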

How the results depend on the processing

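Of the 32 calls of a member in a cell type, 18 held under every alternative that tested them, 14 were lost under at least 1 and none was reversed. After thinning every cell to 500 UMIs 7 calls remained in number, where 4 members passed the gene filter and 6, with 20 of the 32 calls, were not tested. Leaving out 1 library gave 22 to 34 calls, the lowest without old 3. The age comparison had 0 member calls under each alternative, with a term for the 3 libraries that shared barcodes (SMCs could not be fitted) and, chosen after seeing the data, with 1 cluster per type or all SMC clusters. In ECs the Bnip3 age value was reversed without young 1, at 0.57, and ranged from -2.81 to 0.57 over the libraries left out.

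The differences in Hif1a to Epas1 ratio between ECs and the 7 other types kept their direction under each alternative. The age difference of that ratio changed sign in B cells with at least 1000 UMIs (-3.46) and after thinning (-0.39), and in airway epithelial cells after thinning (0.89). Leaving out 1 library it ranged from -0.32 to 1.89 in ECs and from -0.78 to 2.25 in B cells, negative in both without young 2, whose Hif1a count was 0 in both. The cause was not tested for any of these. No paired analysis was possible because the labels give no replicate numbers that the groups share. Depth limits the age comparison, in which Vhl and Egln3 passed the gene filter in no cell type.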
